A study of Mus musculus with 2 samples.

Results

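The TALE homeobox genes that encode cofactors of Hox proteins were followed in the mouse aorta: Meis1, Meis2, Pbx2, Pbx3, Pknox1 and Pknox2. They were chosen by name, as 6 of 21356 genes measured on the arrays, and they are represented by 14 of 41150 probes. TALE proteins carry an extended loop in their homeodomain, the part of the protein that binds DNA. Pbx proteins bind DNA together with Hox proteins and so sharpen which sites a Hox protein occupies, while Meis and Pknox (also called Prep) proteins bind Pbx, hold it in the nucleus and keep it from being degraded. In mouse embryos Meis1, Meis2 and the Pbx genes are needed for the normal division of the cardiac outflow tract, from which the root of the aorta forms.

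RNA came from the aortic arch, the atherosclerosis-prone region, and from the central thoracic aorta, the resistant one, of wild-type C57Bl/6 mice aged 16 weeks. The aortic root and 2 mm of proximal thoracic aorta went with the arch, and the 6 mm below formed the thoracic piece. The whole aortas had been perfused with the detergent Triton X-100 to strip the endothelium. The RNA of 6 mice, 3 males and 3 females, was combined into 1 pool per region, and both pools were hybridised together on each of 2 two-colour Agilent arrays, the arch in Cy5 on array 1 and, the dyes being exchanged, in Cy3 on array 2. Ratios below are of arch over thoracic aorta on the log2 scale and are means of the arrays; ± gives how far each array lies from their mean. This covers technical error only, because each region is a single pool without biological replicates, and no test or p-value accompanies any difference. By the scanner software's flag, 71.3% to 81.5% of the gene spots in a channel stood well above background, and the 30520 probes that did so on both arrays for at least 1 region were kept. The smooth muscle markers fixed for the tissue check (Acta2, Myh11, Tagln, Cnn1, Smtn and Des) were all well above background in both regions, with a median ratio of -0.04, and 5 of 6 endothelial markers were too, those 5 with a median of 0.06.

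Of the 14 member probes, 11 carried the member's symbol in the files. The other 3 carried the older name Mrg1. Of these, 2 were designed on a RefSeq transcript and were matched to Meis2 through its accession. The third, designed on a cDNA clone, shares only the name Mrg1, which is also an older name of the unrelated gene Cited2, and is less surely Meis2. Of all 14, 12 were kept, 10 were well above background in all 4 channels, 2 in none of them, and 0 were saturated. Every member had at least 1 probe well above background in both regions. The scanner software's flag was also raised for negative control spots, 6.69% and 10.8% of them in Cy3 and 0% and 1.91% in Cy5 on arrays 1 and 2. For a dim probe the flag alone therefore does not show expression. Where a gene has several probes they are numbered from the brightest, and a probe's level, on a log2 scale after normalisation, is set only against the same probe in the other region.

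Meis2 transcripts were measured somewhat higher in the arch pool, Meis1 slightly so, and the Pbx and Pknox genes lay close to equal. A probe was called where each array put it past 1.5-fold and both did so in one direction. Of the 12 kept member probes 0 were called, where 0.393% of all kept probes were, 0.21% higher and 0.183% lower in arch. Of those calls 53.3% were higher in arch, and 29.2% where median centring replaced loess. At a 1.2-fold rule 1 of the 12 passed, a Meis2 probe higher in arch; of all kept probes 2.12% passed, 1.25% higher and 0.868% lower. The 12 ratios had a median of 0.03 and ran from -0.06 to 0.33. Over all kept probes the median was 0.00 and 94.1% of ratios lay within 0.2 of 0. In 7 of the 12 member probes the arrays gave opposite signs, 5 were above 0 on both arrays and 0 were below 0 on both, whereas 53.7% of all kept probes had the same sign on both.

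**Figure D1:**
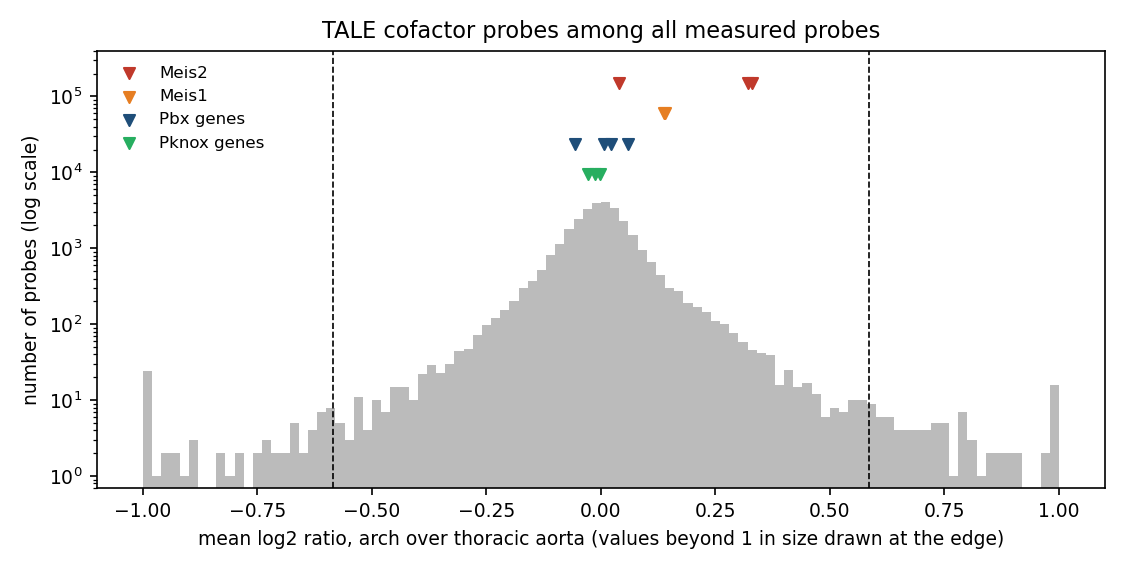
Histogram of the log2 ratio of arch over thoracic aorta for the kept probes, with the 12 kept member probes marked as triangles above it and the dashed lines at the 1.5-fold rule. The 7 Pbx and Pknox probes sit between -0.06 and 0.06 in the bulk of the distribution. In its upper tail, short of the 1.5-fold line, sit 2 Meis2 probes at 0.32 and 0.33.

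Meis2, a cofactor that binds Pbx and Hox proteins and is known for its part in neural crest cells of the outflow tract, gave the largest ratios of the 6 genes after loess with the offset, though not without the offset or by the scanner software's ratio, where a Meis1 probe was higher. Its brightest probe had levels of 9.25 and 9.22 in arch on arrays 1 and 2, against 8.90 and 8.90 in thoracic aorta. Both arch values were above both thoracic ones, the ratios of the arrays were 0.34 and 0.31, and the mean was 0.33 ± 0.02, a 1.26-fold difference. Of all kept probes, 1.05% had a higher mean ratio. The spot stood 539 and 530 intensity units above its local background in arch, against 428 and 503 in thoracic aorta, where the median gene spot stood 39.2 to 55.9 units above it, so this reading was far from the dim end of the array. In a pool of tissue, fewer cells of a type and less RNA per cell cannot be told apart.

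The second Meis2 probe, designed on the same transcript, had levels of 8.93 and 8.73 in arch, against 8.55 and 8.47 in thoracic aorta. Its arch values again lay above its thoracic ones, with ratios of 0.39 and 0.26 and a mean of 0.32 ± 0.06, or 1.25-fold. On array 1 its local background was 75 units in arch and 61 in thoracic aorta, above the array medians of 48 and 41. The third probe, the one named from the file alone, differed from the other two: its levels were 6.87 and 6.69 in arch, against 6.79 and 6.70 in thoracic aorta, the regions overlapped, and its ratio was 0.04 ± 0.04. The probes assigned to Meis2 therefore disagree, 2 giving about 1.25-fold and 1 a ratio near 0.

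The ratio printed for Meis2 depended on whether loess or median centring was used. With each array only centred on its median, without loess, both bright Meis2 probes were at 0.17. The kept probes within 0.5 log2 units of the brightest one's intensity (2218 probes) had a median of -0.17, against -0.01 after loess. The brightest probe lay 0.34 above them either way, and the second probe 0.33 above its own. Loess shifts probes of like brightness together, so these distances were bound to stay nearly equal and are no check on the normalisation. Without the offset in the background correction the brightest probe was at 0.36, and by the scanner software's ratio at 0.38.

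Meis1, the close relative of Meis2 that is also known as a partner of Hox proteins in blood stem cells and leukaemia, differed less between the regions on these values. Its brightest probe had levels of 6.78 and 6.95 in arch, against 6.73 and 6.72 in thoracic aorta. The arch values exceeded the thoracic ones, barely on array 1 (ratio 0.05) and more on array 2 (0.23), and the mean was 0.14 ± 0.09. The spot stood 61.3 and 87.9 units above background in arch, against 73.9 and 64.7 in thoracic aorta. The second probe had levels of 6.40 and 6.31 in arch, against 6.24 and 6.19 in thoracic aorta, with ratios of 0.15 and 0.12 and a mean of 0.14 ± 0.02. Both probes thus gave the same mean ratio, from spots near the brightness of the median gene spot. Ratios of such dim spots shrink with the offset of 50 units: without it the probes were at 0.25 and 0.39, and by the scanner software's ratio at 0.30 and 0.40. For the brightest probe the arrays lay far apart here. Arrays 1 and 2 gave 0.09 and 0.41 without the offset, and 0.08 and 0.51 by the scanner software's ratio.

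All 5 kept Meis probes averaged above 0, with a median of 0.14. With median centring they were above 0 too, though the third Meis2 probe only at 0.0032. On array 2 alone, with loess, the third Meis2 probe was at -0.00088. The 7 kept Pbx and Pknox probes had a median of -0.0026 and ran from -0.06 to 0.06. The difference between these subfamilies was not tested, since the 2 pools are not replicated.

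**Figure D2:**
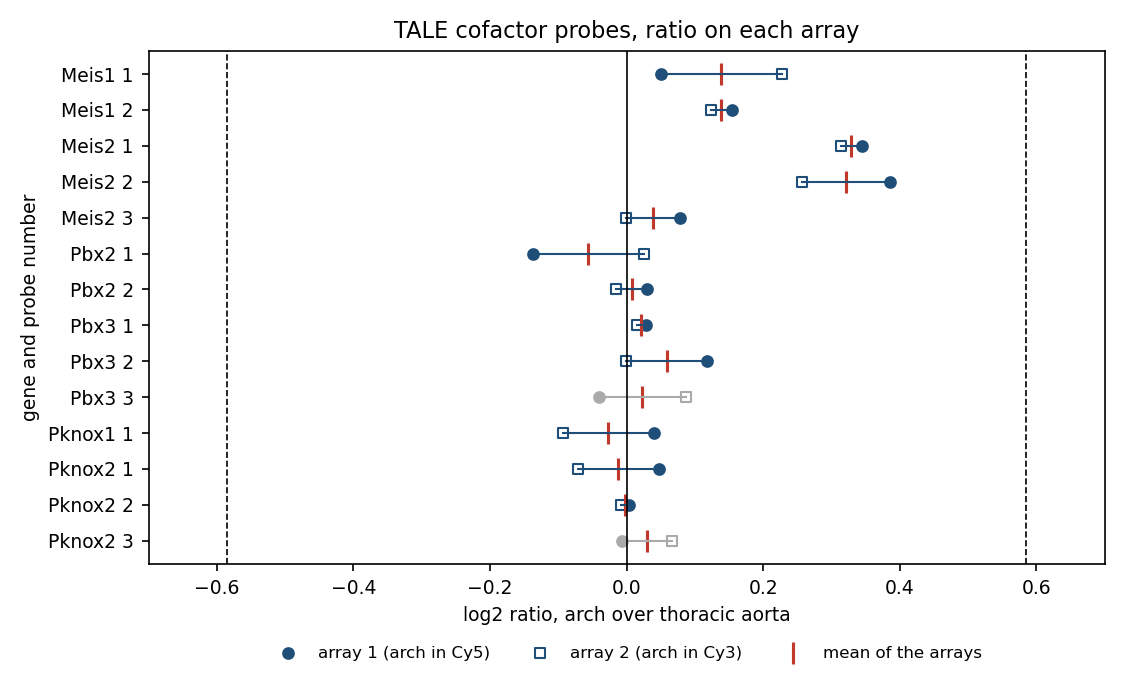
Log2 ratio of arch over thoracic aorta for each of the 14 member probes, with filled circles for array 1, open squares for array 2 and a red bar at their mean; the 2 grey probes were not well above background in any channel, and dashed lines are the 1.5-fold rule. Points of the 2 brighter Meis2 probes lie between 0.26 and 0.39 on both arrays, while those of most Pbx and Pknox probes fall on both sides of 0.

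Pbx2 and Pbx3 encode the Pbx partners themselves, the proteins through which Meis and Hox factors share a site. The brightest Pbx2 probe had levels of 6.99 and 7.13 in arch, against 7.13 and 7.11 in thoracic aorta. The arrays gave opposite signs (-0.14 and 0.03), and the mean was -0.06 ± 0.08. Its second probe, well above background in arch on 1 of 2 arrays, gave 0.01 ± 0.02. No separation between the regions was seen for Pbx2 on either probe.

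The brightest Pbx3 probe had levels of 7.01 and 6.99 in arch, against 6.98 and 6.98 in thoracic aorta, and a ratio of 0.02 ± 0.01, the tightest of the brightest probes. The arrays agreed to within a few hundredths of a log2 unit here, but the sign turned when loess gave way to median centring (-0.035). The second Pbx3 probe, well above background in thoracic aorta on 1 of 2 arrays, gave 0.06 ± 0.06. The third was not well above background in any channel, so no ratio is read from it.

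Pknox1 and Pknox2 compete with Meis proteins for Pbx. The Pknox1 probe had levels of 7.07 and 6.98 in arch, against 7.03 and 7.07 in thoracic aorta, with a mean ratio of -0.03 ± 0.07. The brightest Pknox2 probe had levels of 7.76 and 7.72 in arch, against 7.72 and 7.79 in thoracic aorta, with a mean of -0.01 ± 0.06. For both genes the arrays disagreed in sign and the regions overlapped. The second Pknox2 probe gave -0.0026 ± 0.0053, and the third was not well above background in any channel. None of these values shows that the Pbx and Pknox genes are expressed equally: a difference below about the spread of the arrays, or one between mice, could not be seen here.

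Across the ways of processing tried, the mean ratios of the 2 brighter Meis2 probes were above 0 throughout. Among the 7 Pbx and Pknox probes the second Pbx3 probe reached the highest value, 0.19 without the offset and 0.26 by the scanner software's ratio.

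**Figure D3:**
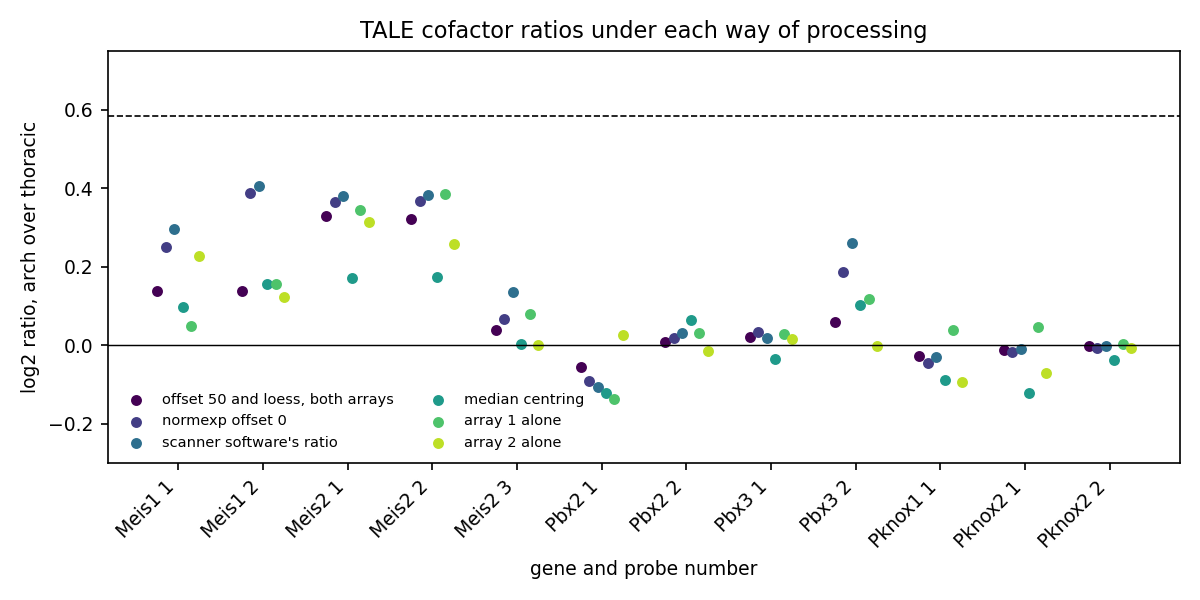
Log2 ratio of arch over thoracic aorta for the 12 kept member probes under 6 ways of processing, 1 point each, with the dashed line at the 1.5-fold rule. The brightest Meis2 probe lies between 0.17 with median centring and 0.38 by the scanner software's ratio, and the brightest Pbx3 probe lies at 0.02 with loess and at -0.035 with median centring.

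**Figure D4:**
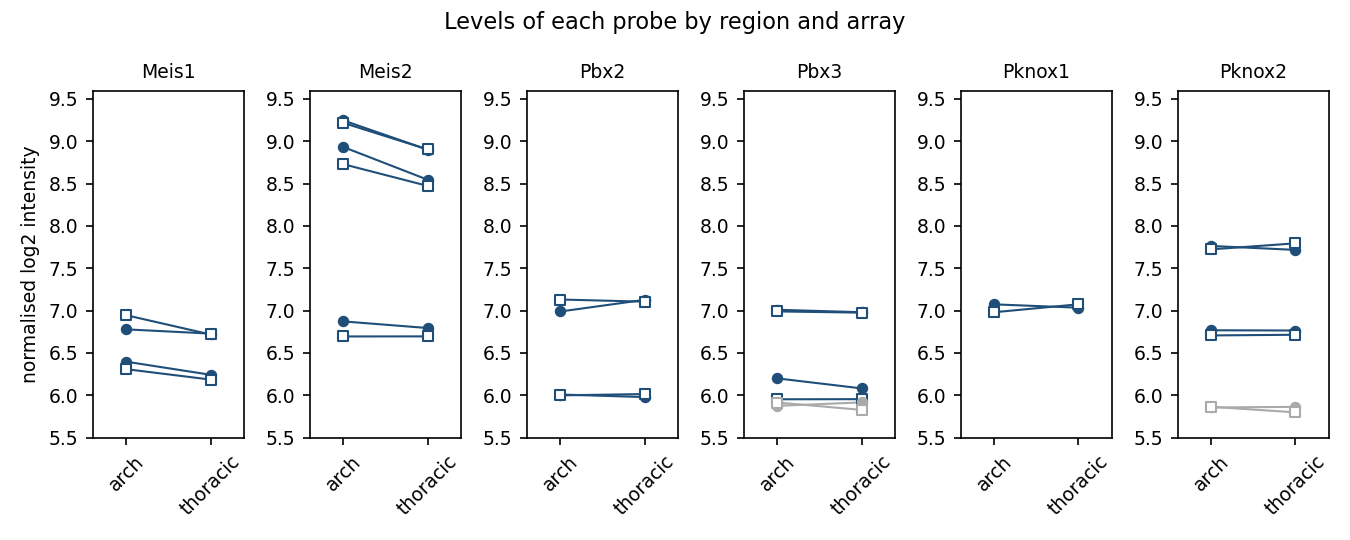
Normalised log2 level of each of the 14 member probes in arch and in thoracic aorta, with filled circles for array 1, open squares for array 2 and a line joining the regions on an array; grey probes were not well above background in any channel. For the 2 brighter Meis2 probes both arch points lie above both thoracic points (9.25 and 9.22 against 8.90 and 8.90 for the brightest); levels are to be compared along a probe, not between probes.

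The other genes of the class were described from their brightest probes. Of 12 further TALE genes, 10 were measured and 0 were called (0.487% of all measured genes were called in either direction), with a median of 0.04 and a range from -0.16 to 0.20, and 7 were above 0. Irx3, Irx1 and Irx6, transcription factors of the Iroquois group, were at 0.20 ± 0.04, 0.17 ± 0.04 and 0.17 ± 0.03. Irx3 was well above background in thoracic aorta on 1 of 2 arrays only, and it was called higher without the offset, at 0.78, and by the scanner software's ratio, at 1.05. Mkx, a factor of tendon cells, was at -0.16 ± 0.10. Among the closest relatives of the 6 genes, Pbx4 was at 0.04 ± 0.00 and Meis3 at -0.07 ± 0.02.

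The Hox genes, whose proteins the 6 cofactors accompany on DNA, were described from the same arrays. Of 39 listed, 26 were measured, 0 were called higher and 6 were called lower in arch, where 0.229% of all measured genes were called lower. Hoxa7 was at -2.89 ± 0.21, Hoxb7 at -2.61 ± 0.25, Hoxb3 at -0.99 ± 0.06, Hoxc6 at -0.93 ± 0.10, Hoxb5 at -0.89 ± 0.00 and Hoxa5 at -0.70 ± 0.03. All 6 were further from 0 without the offset and by the scanner software's ratio. Under these settings Hoxa7 was at -3.40 and -3.49, Hoxb3 at -2.02 and -2.43 and Hoxa5 at -1.13 and -1.21. Hox proteins pattern the body from head to tail, and all 6 stood well above background in every channel. The remaining Hox genes lay on either side of 0, up to 0.33, so that the list's median was 0.00 and 13 of the 26 were above 0. Hoxb8, well above background in thoracic aorta only, was at -0.57 ± 0.08, and its other kept probe was at -0.05. Without the offset its brightest probe was at -2.02, and by the scanner software's ratio at -2.81. Hoxb6 was at 0.10 ± 0.07 by its brightest probe, but its other kept probe gave -0.97. The list had 8 calls without the offset and 10 by the scanner software's ratio, in either direction.

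All 14 listed binding partners and regulators of TALE proteins were measured and 0 were called, with a median of -0.04 and 5 above 0. Pbxip1, which binds Pbx and hinders it from binding DNA with Hox proteins, was at -0.17 ± 0.07. The corepressor Ncor1 was at -0.08 ± 0.06, and the coactivator Crebbp, an acetyltransferase, was at 0.08 ± 0.03. These are the brightest probes: the 6 kept Ncor1 probes ran from -0.15 to 0.09, and the 2 of Crebbp from -0.0019 to 0.08. All 14 were well above background in both regions.

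**Figure D5:**
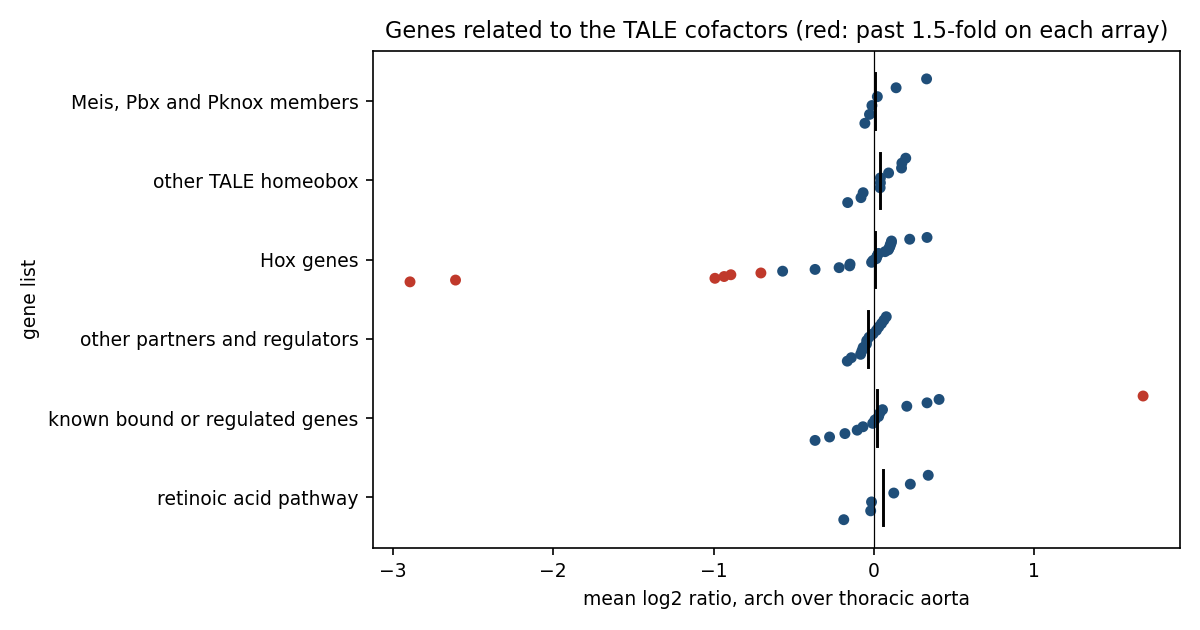
Log2 ratio of arch over thoracic aorta for the measured genes of each related list and of the 6 cofactors, with 1 point per gene (its brightest kept probe), a black bar at each list's median and called genes in red. The called genes, 6 Hox genes and Ren1, lie far from the bulk, and the cofactors lie between -0.06 and 0.33.

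Of 16 genes known from other work to be bound or regulated by TALE proteins, 14 were measured and 1 was called, with a median of 0.02. The called one was Ren1, the gene of renin, whose promoter near the start site holds a known Pbx and Hox binding element, studied in mouse kidney cells. Its brightest probe had levels of 8.30 and 8.43 in arch, against 6.65 and 6.71 in thoracic aorta. Arch values were well above thoracic ones on both arrays, and the ratio was 1.68 ± 0.04, or 3.20-fold; 0.258% of all measured genes were called higher. Without the offset Ren1 was at 2.38, and by the scanner software's ratio at 2.51. Another kept Ren1 probe gave 0.15, so the probes disagree in size. Of the rest, Cdkn2b, an inhibitor of the cell cycle, was at 0.41 ± 0.01, Hoxa2 at 0.33 ± 0.02 and Hoxb2 at -0.37 ± 0.04, each with the same sign on both arrays but not called. Without the offset and by the scanner software's ratio the list had 3 calls, with Cdkn2b at 0.89 and 0.97 and Hoxa2 at 0.67 and 0.72.

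The promoter windows of 4 genes, each the 250 bases before the start, are printed because they show the letters that TALE proteins are known to bind, in a called target and in a further listed gene, beside the promoters of the Meis genes. They are from RefSeq with build GRCm38.p6, and each is read 5′ to 3′ on the gene's strand. Meis2 is at chr2:116064620-116064869 (minus strand), Meis1 at chr11:19018970-19019219 (minus strand), Ren1 at chr1:133350424-133350673 (plus strand) and Hoxa2 at chr6:52164832-52165081 (minus strand). Capitals mark a match on either strand to TGACAG, the Meis and Pknox letters, or to TGATTNAT, the Pbx and Hox letters.
Meis2: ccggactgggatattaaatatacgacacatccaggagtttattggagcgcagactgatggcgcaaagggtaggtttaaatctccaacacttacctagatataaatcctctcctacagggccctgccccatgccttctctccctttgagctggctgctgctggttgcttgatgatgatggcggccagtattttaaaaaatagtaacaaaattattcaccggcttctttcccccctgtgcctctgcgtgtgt
Meis1: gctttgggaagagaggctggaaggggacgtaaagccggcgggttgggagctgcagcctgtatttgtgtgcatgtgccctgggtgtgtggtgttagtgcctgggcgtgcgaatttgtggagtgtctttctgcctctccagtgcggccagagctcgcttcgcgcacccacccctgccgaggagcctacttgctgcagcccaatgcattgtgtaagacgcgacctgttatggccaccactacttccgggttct
Ren1: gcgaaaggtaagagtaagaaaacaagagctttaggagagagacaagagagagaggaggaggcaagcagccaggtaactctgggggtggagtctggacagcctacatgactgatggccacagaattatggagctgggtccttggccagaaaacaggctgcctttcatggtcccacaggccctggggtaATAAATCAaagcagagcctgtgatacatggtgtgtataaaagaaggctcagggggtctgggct
Hoxa2: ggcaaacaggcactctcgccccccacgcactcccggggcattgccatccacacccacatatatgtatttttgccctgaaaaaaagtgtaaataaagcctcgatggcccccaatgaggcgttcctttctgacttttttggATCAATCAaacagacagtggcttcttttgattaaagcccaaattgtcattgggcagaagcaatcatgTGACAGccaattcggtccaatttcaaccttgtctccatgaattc

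The windows of Meis2 and Meis1 hold no capital, and nor does that of Pbx2, the third cofactor with a window in the RefSeq table. In Ren1 the capitals are ATAAATCA, the reverse complement of a TGATTNAT match, from 63 to 56 bases before the start. In Hoxa2 the window holds ATCAATCA from 111 to 104 bases before the start and TGACAG from 44 to 39 bases before it. Of 32851 mouse promoter windows, 15.9% hold TGACAG and 2.82% hold TGATTNAT on either strand; the motifs do not overlap in these 4 windows. Of the 13 bound or regulated genes with a window, 3 hold TGACAG and 4 hold TGATTNAT. This count is per gene, over 15 windows, and the genes were listed for known binding or regulation, so it is not set against the share of all windows. Of 22 Hox genes with a window, 2 hold TGACAG and 2 hold TGATTNAT. Of 7 other TALE genes, 0 hold TGACAG and 1 holds TGATTNAT. A match describes letters in a window and says nothing of binding in these aortas.

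Retinoic acid, a signal that switches on Hox and Meis genes in the embryo, was looked at as a neighbouring pathway. Of 8 listed genes 6 were measured, 0 were called and the median was 0.05, which median centring turned to -0.022. Aldh1a2, which makes retinoic acid, was at 0.34 ± 0.07. Cyp26b1, which degrades retinoic acid, was at 0.12 ± 0.00, and Dhrs3, which turns retinal back into retinol, at -0.19 ± 0.09. With median centring Aldh1a2 was at 0.25, Cyp26b1 at -0.0071 and Dhrs3 at -0.36.

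Markers of some other cells were also higher in the arch pool, as Meis2 was. Of 7 measured adipocyte markers 4 were called higher, and their summed level was 11600 and 11485 in arch, against 7164 and 7465 in thoracic aorta. The 6 mesothelial markers were all above 0, 0 of them called, with sums of 1916 and 2034 in arch, against 1418 and 1463 in thoracic aorta. Of 7 measured cardiomyocyte markers 3 were called higher (Myl7, Tnnt2 and Sln), with sums of 14891 and 14735 in arch, against 13479 and 15317 in thoracic aorta. Most of that sum is Actc1, and without it, a choice made after its values were seen, the other 6 summed to 1856 and 1932 in arch, against 928 and 981 in thoracic aorta. Myh6 was not well above background. Smooth muscle sums were 152542 and 143032 in arch, against 150693 and 147058 in thoracic aorta. Most of the smooth muscle sum is Acta2, Tagln and Cnn1. Myh11 and Des were lower in arch on both arrays, at -0.22 ± 0.03 and -0.22 ± 0.01, while 3 of the 6 smooth muscle markers averaged above 0. Of 5 fibroblast markers 0 were called, with a median of 0.06 and sums of 57551 and 56490 in arch, against 50313 and 54296 in thoracic aorta. Pdgfra was at 0.55 ± 0.15 by its brightest probe, but its other kept probe gave 0.0085. Lum was at 0.55 ± 0.06, while Dcn, Dpt and Pi16 were at -0.03, 0.04 and 0.06. Medians of the other lists were 0.18 for 4 cartilage, 0.04 for 7 nerve, 0.04 for 4 lymphocyte and -0.21 for 6 macrophage markers. The part of any of these cells in the Meis2 difference was not tested.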

How the data were processed

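The submitters' processing notes name Agilent Feature Extraction 9.1.1.1 as the scanner software. Its deposited output holds, for every spot and dye, the intensity and the local background, per the file headers, together with a log10 ratio of processed signals as deposited. The authors' value table equalled this log10 ratio in 99.9% of features per array (tolerance 1e-06), with arch on top; its medians are 0, and its scale and direction were found from this match. Each pool is 1 replicate of 6 mice, and RNA integrity numbers were 7.5 to 7.7.

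Here background was corrected by normexp (offset 50) and ratios were normalised by loess within each array, with limma 3.58.1 in R 4.3.3 and control spots at weight 0. Control and flagged spots (20 and 4) were left out of 43790 per array, and the sign of array 2 was turned. Levels are per channel after loess and Aquantile. Current symbols came from a RefSeq table (assembly GRCm38.p6), used for names: 23134 of 41534 gene spots matched by accession. A gene took its brightest kept probe. The steps were tested on simulated dye swaps. Changes of 1.5-fold and more were planted, none of them in the dimmest spots, so the simulation says nothing of differences as small as those of the members.

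The members, lists and rules were chosen with earlier results of these data known. Named are all 6 members with every probe, and of each related list the called genes. Where fewer than 3 were called, up to 4 with the largest ratios of one sign on both arrays were named. Pbx4 and Meis3 were added as close relatives, and Hoxb6 and Hoxb8 for a low probe, all after their values were seen. Some genes that this rule names are not reported here. Negative controls stood 9.90 to 27.1 units above local background. The number of arrays limits the precision. Alternatives were the offset, the scanner software's ratio, median centring, the filter, single arrays, the fold rule and the choice of probe.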

Additional observations from a re-analysis of the deposited data

How the results depend on the processing

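Calls over all probes, 64 higher and 56 lower in arch, became 146 and 126 without the offset, 200 and 160 by the scanner software's ratio and by the value table, and 35 and 85 with median centring, so that 53.3% of the calls were higher with loess and 29.2% with median centring. On array 2 alone 101 were higher. The 1.3-fold rule gave 161 and 129, the 1.2-fold rule 382 and 265, and the 2-fold rule 11 and 17. Of the member probes, 1 was called at 1.2-fold and 0 under every other setting tried. Calls in the related lists, 7 in all, became 11 without the offset, 13 by the scanner's ratio and by the value table, 12 at 1.2-fold and 3 at 2-fold. The median of the member probes was 0.083 by the scanner's ratio and by the value table, against 0.03. The brightest Meis1 probe, at 0.14, was at 0.25 without the offset and 0.30 by the scanner's ratio and the value table. The brightest Meis2 probe, at 0.33, was at 0.36 without the offset, 0.38 by the scanner's ratio and the value table and 0.17 with median centring. The brightest Pbx3 probe, at 0.02, was at 0.034 without the offset and turned to -0.035 with median centring. The brightest Pknox2 probe, at -0.01, was at -0.12 with median centring, and the retinoic acid median, at 0.05, turned to -0.022 with it. Apart from the construction of each setting, the cause was not tested. No paired analysis was possible because both arrays hold the same 2 RNA pools. Dim probes, among them both Meis1 probes, are limited by their signal over background, and the difference between mice was not measured.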
